A study of Mus musculus with 10 samples.

Results

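The vacuolar proton pump (V-ATPase) and the organelle chloride transporters that work beside it were examined in cultured mouse islets, through 30 genes on 10 arrays. A gene entered if its symbol follows the pattern of V-ATPase subunit names, or if it is Tcirg1, Atp6ap1, Atp6ap2, an organelle CLC transporter gene from Clcn3 to Clcn7, or Ostm1. An array row had to name that gene alone, and each of the 30 genes had exactly 1 such row among 32814 rows that name a gene. They comprise 13 genes of the V1 sector, 9 of the V0 sector, 2 accessory subunits, and 6 for the CLC transporters and Ostm1. Atp6v0c, the gene of the proteolipid c subunit, was not analysed here.

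Islets came from male C57BL/6 mice (C57Bl/6J in the study's methods) aged 10 weeks, kept on a light and dark cycle of 12 h each. They were freed by collagenase, hand-picked and cultured for 24 h, although another field of the labels says overnight. The 2 groups differ in Zeitgeber time, counted in hours from lights on: 5 samples belong to ZT8, in the light phase, and 5 to ZT20, in the dark phase. The sample titles write CT in place of ZT. The study's methods describe inverted housing for the ZT20 mice, whereas the labels give all samples the same hour of lights on, and under inverted housing Zeitgeber time and housing cannot be told apart. No allele or drug was involved, each sample is 1 array that the labels call a biological replicate, and a supplementary heading of the study gives 5 animals per group. The labels tie no array to an animal, so the p-values measure the spread between these samples, which may be partly technical. Values are log2 array signals as deposited, and every difference is ZT8 minus ZT20, so that a positive value means a higher signal at ZT8.

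The V-ATPase is a rotary pump that spends ATP to move protons into organelles. Its V1 sector lies in the cytosol, where subunits A and B form the ring that splits ATP, D and F the central shaft, and C, E, G and H the outer stalks and their anchor. The V0 sector sits in the membrane, where the c-type proteolipids form the rotor ring, subunit a carries the proton path, d couples the ring to the shaft, and e is a small membrane subunit. CLC transporters exchange chloride for protons and so balance the charge that the pump moves. In the beta cell, the acidic interior of the granule supports the conversion of proinsulin to insulin and the packing of insulin with zinc, and the same pump acidifies lysosomes.

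No V-ATPase or acidification gene was called different between ZT8 and ZT20. Under limma, 0 of 30 genes passed an adjusted p under 0.05, where 0.744% of all rows did, 0.567% in the direction of ZT8 and 0.177% in the direction of ZT20. At an unadjusted p under 0.05, 3 genes were higher at ZT8 (Atp6v1d, Atp6v1e1 and Atp6v1c1), against 8.37% of all rows, and 3 were lower (Tcirg1, Atp6v1g2 and Ostm1), against 10.2%. Each count is 10.0% of the genes, near the share of all rows in the values as deposited. The methods' t-test, which allows unequal variances, found 0 at an adjusted p under 0.05. At an unadjusted one it found 2 higher, against 7.56% of all rows, and 3 lower, against 9.0%.

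In all 30 genes the values of the ZT8 arrays overlapped those of the ZT20 arrays, whereas 3.39% of all rows had every ZT8 array above every ZT20 array and 2.54% had every one below. Differences ran from -0.17 to 0.18. The 95% confidence interval that reached farthest from zero ended at 0.33, a ratio of 1.26, so the intervals bound each difference without showing that the levels were equal. The split of the genes at an unadjusted p under 0.05 depended on the scaling: after median centring of every array it was 3 higher and 0 lower, where 13.0% and 4.48% of all rows were. With quantile normalization it was 0 higher and 7 lower, or 23.3% of the genes, where 8.14% of all rows were higher and 7.29% lower. Those 7 were Atp6ap1, Atp6v0e, Atp6v1g2, Clcn4, Clcn6, Ostm1 and Tcirg1, with 0 at an adjusted p under 0.05.

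**Figure D1:**
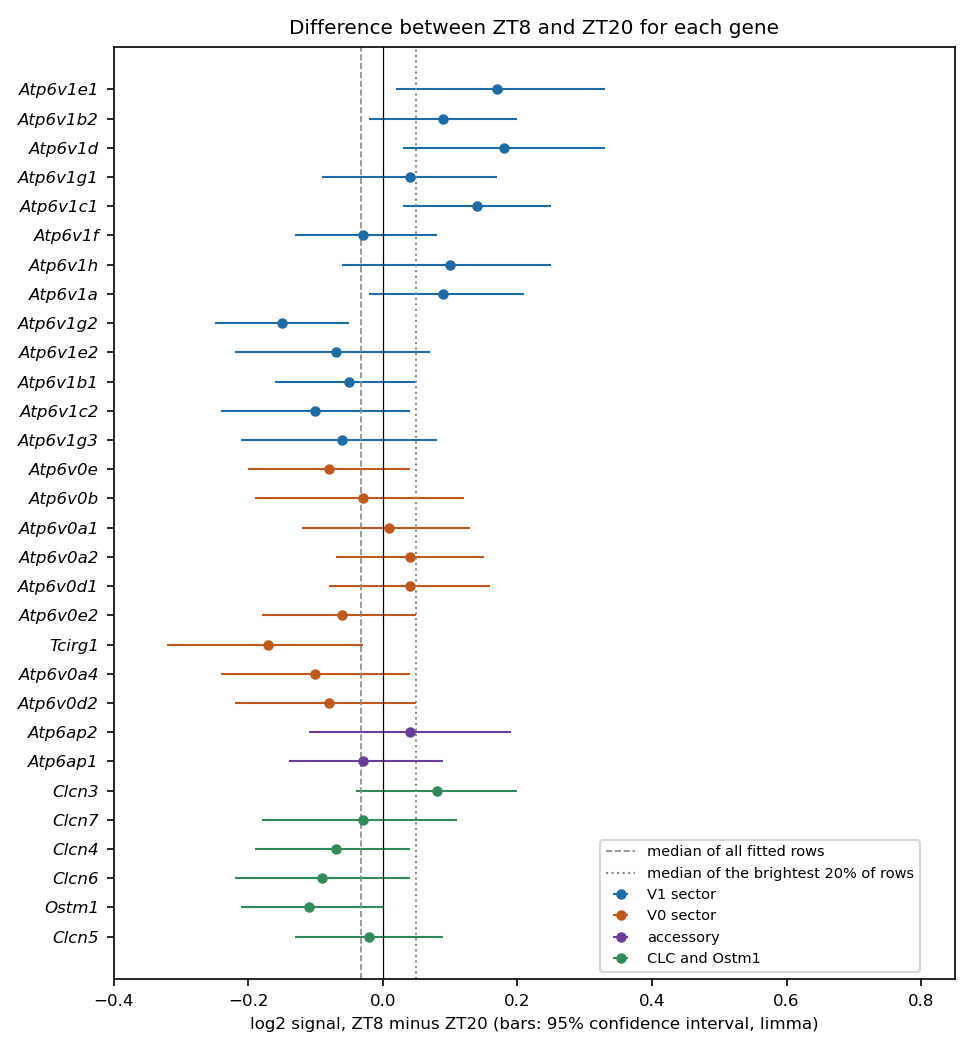
Each gene's difference in log2 signal, ZT8 minus ZT20 (horizontal axis), with its 95% confidence interval from limma, grouped by sector and ordered by mean signal (vertical axis). Vertical lines mark 0, the median of all rows (-0.032, dashed) and the median of the brightest 20% of rows (0.049, dotted); the points lie between -0.17 and 0.18.

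The level of each gene was read against 23 background control rows, whose means ran from 2.14 to 7.07, and whose highest value on an array lay between 6.83 and 7.35. Of the 30 genes, 23 were above the highest background row on all 10 arrays, and Atp6v1g2 on 9. The remaining 6, Atp6v0a4, Atp6v0d2, Atp6v1b1, Atp6v1c2, Atp6v1e2 and Atp6v1g3, were below it on every array. Each subunit position with paralogues had a highest row that stood first on all 10 arrays: Atp6v0a1, Atp6v0d1, Atp6v0e, Atp6v1b2, Atp6v1c1, Atp6v1e1 and Atp6v1g1. Rows of different genes carry different probes, so the order is one of array signals and not of transcript numbers.

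**Figure D2:**
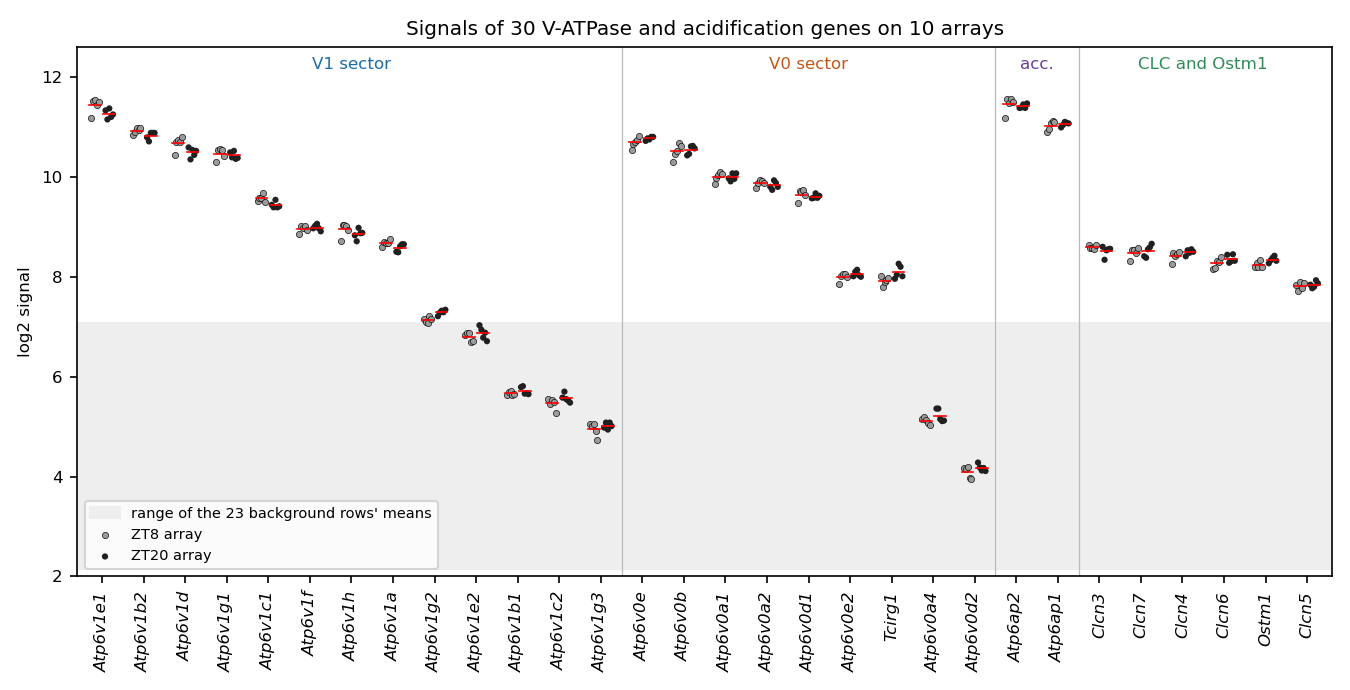
Log2 signal (vertical axis) of the 30 genes on the 5 ZT8 arrays (light points) and the 5 ZT20 arrays (dark points), by sector and in falling order of mean signal, with group means as red lines. The shaded band spans the means of the background rows, 2.14 to 7.07, and 6 genes lie within it or at its edge on all arrays.

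Among the V1 genes, Atp6v1e1, the E subunit of the outer stalk used throughout the body, had the highest signal. It read 11.18, 11.51, 11.53, 11.44 and 11.50 on ZT8 replicates 1 to 5 and 11.33, 11.15, 11.37, 11.20 and 11.25 on the ZT20 arrays in the same order. All ZT8 arrays but replicate 1 lay above all ZT20 arrays, and replicate 1 lay near the bottom of the ZT20 range. The 5 ZT8 arrays averaged 11.43 ± 0.144 and the 5 ZT20 arrays 11.26 ± 0.0896 (SD), which is 0.17 apart (SE 0.0715), with an adjusted p of 0.228 and an exact permutation p of 0.0714. Its paralogue Atp6v1e2, known mainly from testis, was below the highest background row on every array, with group means of 6.8 and 6.87.

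Atp6v1d encodes the D subunit of the central shaft. Its ZT8 values were 10.44, 10.69, 10.74, 10.70 and 10.79, and its ZT20 values were 10.59, 10.35, 10.54, 10.44 and 10.52. As in Atp6v1e1, ZT8 replicate 1 alone fell among the ZT20 values. Group means of 10.67 ± 0.135 and 10.49 ± 0.0958 (SD, n = 5 each) gave a difference of 0.18 (SE 0.0703, adjusted p = 0.205, exact permutation p = 0.0397). Atp6v1f, the other shaft subunit, averaged 8.96 and 8.99, with a difference of -0.03 (95% interval -0.13 to 0.08).

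Atp6v1c1, the C subunit that joins stalk and membrane sector, read 9.52, 9.58, 9.58, 9.68 and 9.50 at ZT8 and 9.44, 9.39, 9.54, 9.39 and 9.41 at ZT20. Only ZT20 replicate 3 reached into the ZT8 values. The difference was 0.14 (SE 0.0505, adjusted p = 0.18, exact permutation p = 0.0238), between means of 9.57 ± 0.0702 and 9.43 ± 0.0605 (SD, n = 5 each). Atp6v1c2, found chiefly in kidney and lung, was likewise below background, with group means of 5.46 and 5.57.

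For subunit B, Atp6v1b2 read 10.84, 10.89, 10.97, 10.94 and 10.98 at ZT8 and 10.79, 10.71, 10.88, 10.88 and 10.88 at ZT20. Here 4 ZT8 arrays passed the top of the ZT20 range. Its difference of 0.09 (SE 0.0514) had an adjusted p of 0.348, and its group means were 10.92 ± 0.06 and 10.83 ± 0.0757 (SD, n = 5 each). Atp6v1b1, the form of kidney intercalated cells and the inner ear, was below the highest background row on every array, with group means of 5.66 and 5.72. Atp6v1a, the catalytic A subunit, averaged 8.67 and 8.58, a difference of 0.09 (95% interval -0.02 to 0.21). Atp6v1h, the regulatory H subunit, averaged 8.95 and 8.85, a difference of 0.10 (-0.06 to 0.25).

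The G subunit of the outer stalk gave a bright and a dim row with differences of opposite sign, although that of Atp6v1g1 turned to -0.062 with quantile normalization. Atp6v1g1, the widely expressed form, read 10.29, 10.53, 10.55, 10.53 and 10.42 at ZT8 and 10.49, 10.39, 10.52, 10.36 and 10.38 at ZT20. ZT8 replicates 2, 3 and 4 lay just above all ZT20 arrays, and ZT8 replicate 1 was the lowest of all 10. Its means were 10.46 ± 0.107 and 10.43 ± 0.0739 (SD, n = 5 each), a difference of 0.04 (SE 0.06, adjusted p = 0.774).

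Atp6v1g2, the neuronal G form, read 7.16, 7.10, 7.08, 7.21 and 7.15 at ZT8 and 7.21, 7.28, 7.32, 7.29 and 7.34 at ZT20. The groups met only at 7.21, in ZT8 replicate 4 and ZT20 replicate 1. The difference was -0.15 (SE 0.0459), between means of 7.14 ± 0.0506 and 7.29 ± 0.0506 (SD, n = 5 each), and its adjusted p of 0.126 was the smallest of the 30 genes (exact permutation p = 0.0159). The row lay close to the highest background row, below it on 1 array. The test of a gap between Atp6v1g1 and Atp6v1g2 was not run. Atp6v1g3, a kidney form, was below background, with group means of 4.95 and 5.02.

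In the V0 sector, subunit a has 4 genes, whose products direct the pump to different membranes. The row of Atp6v0a1 averaged 10.0 and that of Atp6v0a2 9.85, in that order on each array although their ranges over arrays overlapped. Tcirg1 averaged 8.01, and Atp6v0a4, the kidney and inner ear form, was below the highest background row on every array.

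Atp6v0a1 read 9.85, 9.97, 10.04, 10.10 and 10.06 at ZT8 and 9.97, 9.91, 10.07, 9.96 and 10.07 at ZT20. Apart from the low ZT8 replicate 1, both groups covered much the same range. Both means were 10.0 (SD 0.0981 at ZT8 and 0.068 at ZT20, n = 5 each), with a difference of 0.01 (SE 0.0572, adjusted p = 0.954). Atp6v0a2 averaged 9.87 and 9.83, a difference of 0.04 (95% interval -0.07 to 0.15), and Atp6v0a4 averaged 5.12 and 5.22.

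Tcirg1 encodes the a3 subunit, best known for acid secretion by osteoclasts and also found on insulin granules. It read 8.02, 7.79, 7.89, 7.93 and 7.98 at ZT8 and 7.96, 8.04, 8.26, 8.20 and 8.01 at ZT20. ZT20 replicates 3 and 4 stood above all others, and the remaining ZT20 arrays lay near the upper end of the ZT8 range. The difference was -0.17 (SE 0.0679, adjusted p = 0.209, exact permutation p = 0.0397), between means of 7.92 ± 0.091 and 8.10 ± 0.128 (SD, n = 5 each).

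Macrophages and osteoclasts also express Tcirg1, and their marker lists were read beside it. Of 11 macrophage and leukocyte markers, 3 were above the highest background row on every array, 9 were lower at ZT8 with a median difference of -0.097, and the summed linear signal ran from 1580 to 1700 at ZT8 and from 1560 to 2100 at ZT20. The mean log2 signal of that list was 7.04 on ZT20 replicate 3, the highest of all arrays, and 6.74 on ZT20 replicate 4, while both arrays had high Tcirg1. Of 6 osteoclast and kidney intercalated cell markers, all were lower at ZT8 with a median difference of -0.098, 1 was above background throughout, and the sum ran from 536 to 553 at ZT8 and from 544 to 683 at ZT20. Acp5 of the osteoclast list and C1qa of the macrophage list, both above background on all arrays, were picked after their values were seen. They had differences of -0.22 (adjusted p = 0.156) and -0.23 (adjusted p = 0.221). Lyz2 and Cd14 of the macrophage list went the other way, at 0.07 and 0.12. The lean was not particular to these 2 lists. Of 7 stellate cell and fibroblast markers 7 were lower at ZT8 (median -0.18), and of 8 endothelial markers 7 (median -0.081). Of 8 acinar markers 1 was lower (median 0.165), and of 9 beta cell markers 2 (median 0.074). Dim rows lay lower at ZT8 on the whole array: the median difference was 0.009 for rows near a level of 7.748 and -0.07 near 5.459. Of all rows 38.1% were higher at ZT8, and of the dimmest 20% of rows 18.4%. The part of macrophages and osteoclasts in the Tcirg1 values was not tested. In whole islets, fewer cells of a type and less RNA per cell cannot be told apart.

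The d subunit was represented by Atp6v0d1, at 9.47, 9.71, 9.69, 9.73 and 9.63 at ZT8 and 9.57, 9.58, 9.67, 9.58 and 9.62 at ZT20. The ZT8 arrays enclosed the whole ZT20 range. The difference was 0.04 (SE 0.056, adjusted p = 0.721), with means of 9.64 ± 0.106 and 9.60 ± 0.0433 (SD, n = 5 each). Atp6v0d2, the osteoclast form, was below the highest background row on every array, with group means of 4.09 and 4.17.

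Atp6v0e, the small e subunit, read 10.54, 10.66, 10.69, 10.74 and 10.81 at ZT8 and 10.72, 10.77, 10.75, 10.80 and 10.80 at ZT20. The first 3 ZT8 arrays lay below all ZT20 arrays and replicate 5 above them. Its means were 10.69 ± 0.10 and 10.77 ± 0.0345 (SD, n = 5 each), a difference of -0.08 (SE 0.0538, adjusted p = 0.422). Atp6v0e2, its neuronal paralogue, averaged 7.99 and 8.05, a difference of -0.06, and Atp6v0b, the c'' proteolipid of the rotor ring, averaged 10.51 and 10.54, a difference of -0.03 (95% interval -0.19 to 0.12).

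Both accessory subunits gave strong signals with little difference between groups. Atp6ap2, the prorenin receptor, which takes part in pump assembly, read 11.17, 11.56, 11.48, 11.55 and 11.50 at ZT8 and 11.38, 11.39, 11.45, 11.38 and 11.47 at ZT20. All ZT8 arrays but replicate 1 were above the ZT20 arrays, and replicate 1 was the lowest of all 10. The difference was 0.04 (SE 0.07, adjusted p = 0.786), with means of 11.45 ± 0.159 and 11.41 ± 0.0411 (SD, n = 5 each).

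Atp6ap1, the Ac45 protein first described in neuroendocrine secretory granules, read 10.89, 10.96, 11.07, 11.12 and 11.09 at ZT8 and 10.99, 11.04, 11.10, 11.08 and 11.07 at ZT20. The ZT8 arrays again enclosed the ZT20 range. Its difference was -0.03 (SE 0.0535, adjusted p = 0.803), with means of 11.03 ± 0.0956 and 11.05 ± 0.0438 (SD, n = 5 each), and its sign turned to 0.02 after median centring of every array.

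The CLC transporters had signals close to each other. Clcn3, Clcn7, Clcn4 and Clcn6 averaged 8.56, 8.50, 8.46 and 8.31, each pair of neighbours overlapped over the arrays, and none of these neighbours kept its order on all 10. Clcn5, a transporter of early endosomes, had the lowest row of the CLC genes on every array, with a mean of 7.83. Clcn3, a transporter of endosomes and synaptic vesicles, read 8.64, 8.57, 8.58, 8.55 and 8.64 at ZT8 and 8.60, 8.34, 8.53, 8.55 and 8.56 at ZT20. ZT20 replicate 2 was low and the other arrays lay within a narrow range. The difference was 0.08 (SE 0.0543, adjusted p = 0.437), with means of 8.60 ± 0.0391 and 8.52 ± 0.101 (SD, n = 5 each).

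Ostm1 encodes the partner that the lysosomal transporter ClC-7 needs to be stable. It read 8.19, 8.27, 8.19, 8.33 and 8.20 at ZT8 and 8.27, 8.33, 8.38, 8.42 and 8.32 at ZT20. In this row 3 ZT8 arrays were below all ZT20 arrays, and replicates 2 and 4 lay within the ZT20 range. The difference was -0.11 (SE 0.049, adjusted p = 0.268, exact permutation p = 0.0556), with means of 8.24 ± 0.0621 and 8.34 ± 0.0595 (SD, n = 5 each). Clcn7, which encodes ClC-7, averaged 8.48 and 8.52, a difference of -0.03 (95% interval -0.18 to 0.11). Clcn4 and Clcn6 averaged 8.42 and 8.27 at ZT8 and 8.49 and 8.36 at ZT20, and Clcn5 averaged 7.82 and 7.84.

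Many lysosomal genes carry the CLEAR element, which TFEB and its relatives bind, and whose core contains the E-box that CLOCK and BMAL1 bind. The members' promoters were therefore searched for both, in RefSeq windows of GRCm38.p6 that run from 250 bases before to 50 after an annotated start. Of the 18 genes with 1 window, that start was the gene's own annotated start in 13. Windows were found for 24 of the 30 genes, the others being Atp6v0a2, Atp6v0d2, Atp6v1b2, Atp6v1c1, Atp6v1g1 and Atp6v1h. The E-box CACGTG was present for 7 of the 24 genes (29.2%) and in 8.09% of all 27025 genes with a window. The CLEAR core TCACGTGA, which always contains the E-box, was present for 5 of the 24 (20.8%) and in 1.12% of all genes. Both motifs read the same on either strand, and over windows rather than genes the shares of all promoters were 7.15% and 0.974%.

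The 5 genes with the CLEAR core are shown because they span the sectors: a V1 gene, V0 genes and CLC genes. Each stretch of 28 bases is printed from RefSeq, 5′ to 3′ in the direction of the gene, with the core in capitals.
Atp6v1a (chr16:44139374-44139401, minus strand): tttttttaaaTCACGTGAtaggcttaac
Atp6v0d1 (chr8:105566051-105566078, minus strand): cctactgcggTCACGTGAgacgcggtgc
Atp6v0e (chr17:26676388-26676415, plus strand): agcgcgccgaTCACGTGAgcctctgttg
Clcn6 (chr4:148038822-148038849, minus strand): ccggggccagTCACGTGAggcgcggatc
Clcn7 (chr17:25133387-25133414, plus strand): cgatgatagaTCACGTGAgacctgggcg

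Beyond the shared letters the flanks differ, and the place of the motif differs too. Counted from the start, with the base before it as -1, its E-box began at -131 in Atp6v1a, at -25 in Clcn6 and at -3 in Atp6v0d1, and it lay just after the start in Atp6v0e and Clcn7. Clcn6 and Atp6v0b each carried 2 E-boxes within 60 bases before the start, in capitals in the next stretches, and those of Atp6v0b lay outside a CLEAR core.
Clcn6 (chr4:148038814-148038873, minus strand): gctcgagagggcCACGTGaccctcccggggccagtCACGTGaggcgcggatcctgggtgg
Atp6v0b (chr4:117887330-117887389, minus strand): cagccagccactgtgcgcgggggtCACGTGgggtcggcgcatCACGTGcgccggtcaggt

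Clcn4 held a single E-box, which began at -153. The 7 genes with an E-box had differences between -0.09 and 0.09 and a median of -0.03, and 0 of them had an unadjusted p under 0.05, where 18.5% of all rows did in either direction. The 17 genes with a window and no E-box had differences between -0.17 and 0.18 and a median of -0.05, and 5 of them had an unadjusted p under 0.05: Atp6v1d, Atp6v1e1, Atp6v1g2, Tcirg1 and Ostm1. Absence of a match says only that these letters are not in this window.

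Over the whole array the differences followed the signal level, which described the 30 genes only in part. The median difference of all rows was -0.032, with 38.1% of rows higher at ZT8, but it was 0.049 in the brightest 20% of rows, where 71.0% were higher, and -0.067 in the dimmest 20%. The 30 genes had a median of -0.03, with 12 higher and 18 lower. The 20 of them in the brightest 20% had a median of 0.037, with 12 higher and 8 lower, and the 10 below it were all lower, with a median of -0.077. Apart from Atp6v1b1 and Atp6v1g3, the dim genes were also lower than the median row of their level. Tcirg1, Atp6v0e2 and Clcn5 were lower at ZT8 although the median row of their level was higher, by 0.022, 0.022 and 0.009.

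**Figure D3:**
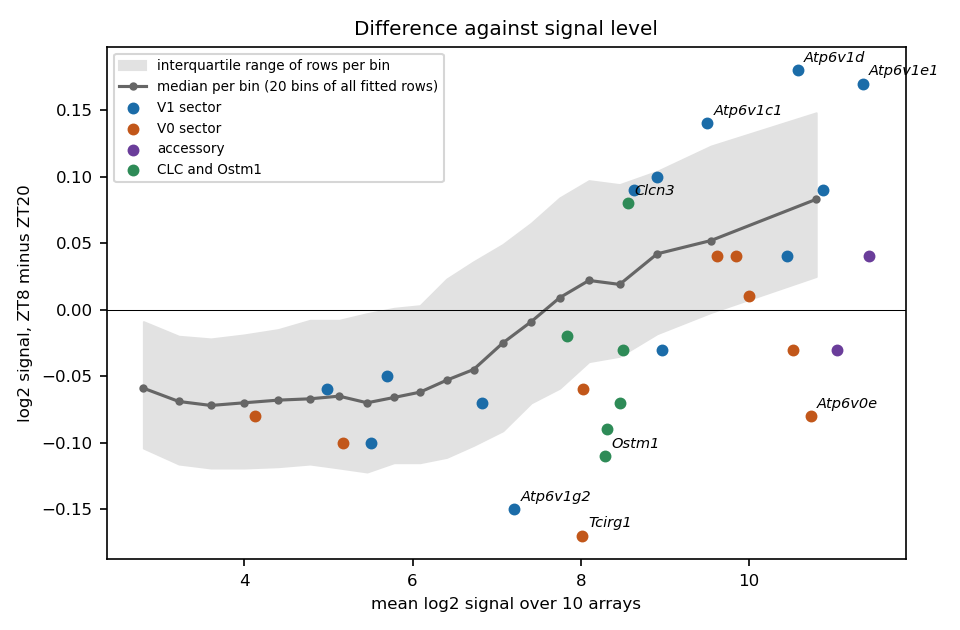
Difference in log2 signal, ZT8 minus ZT20 (vertical axis), against mean log2 signal over 10 arrays (horizontal axis). The grey line and band give the median and the interquartile range of all rows in 20 bins of signal level, with a median of 0.083 in the brightest bin; coloured points are the 30 genes by sector.

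Within the brightest 20% the sectors had different medians. The 8 V1 genes there had a median of 0.095, with 7 higher at ZT8, and the 5 V0 genes a median of 0.007, with 3 higher. The 5 CLC and Ostm1 genes had a median of -0.075, with 1 higher, Clcn3. All 6 CLC and Ostm1 genes together had a median of -0.055 with 1 higher, which was -0.007 with 3 higher after median centring and -0.089 with 1 higher after quantile normalization. Against the median row of their own level bin, 6 of the 8 V1 genes stood higher, from -0.069 for Atp6v1f to 0.099 for Atp6v1d. Of the 5 V0 genes 0 stood higher, from -0.164 for Atp6v0e to -0.01 for Atp6v0a2. Of the 5 CLC and Ostm1 genes 1 stood higher, from -0.126 for Ostm1 to 0.06 for Clcn3. The medians of these distances were 0.064 for V1, -0.045 for V0 and -0.094 for CLC and Ostm1. Atp6ap1 and Atp6ap2 also stood lower, at -0.111 and -0.044.

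An additive shift of a whole array cancels in a difference within that array, though a shift that varies with signal level does not. The mean of the 8 V1 rows was therefore set against the mean of the 5 V0 rows on each array. The V1 mean minus the V0 mean was -0.181, -0.138, -0.168, -0.231 and -0.219 on the ZT8 arrays and -0.230, -0.318, -0.268, -0.325 and -0.312 on the ZT20 arrays. The groups averaged -0.187 ± 0.038 and -0.291 ± 0.041 (SD, n = 5 each) and met at ZT8 replicate 4 and ZT20 replicate 1. These rows were grouped after their levels had been seen, and no test was made of the gap. Quantile normalization gave medians of 0.052 with 5 of 8 higher for these V1 genes and -0.073 with 0 of 5 higher for the V0 genes, and median centring gave 0.143 with 8 of 8 and 0.055 with 4 of 5.

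**Figure D4:**
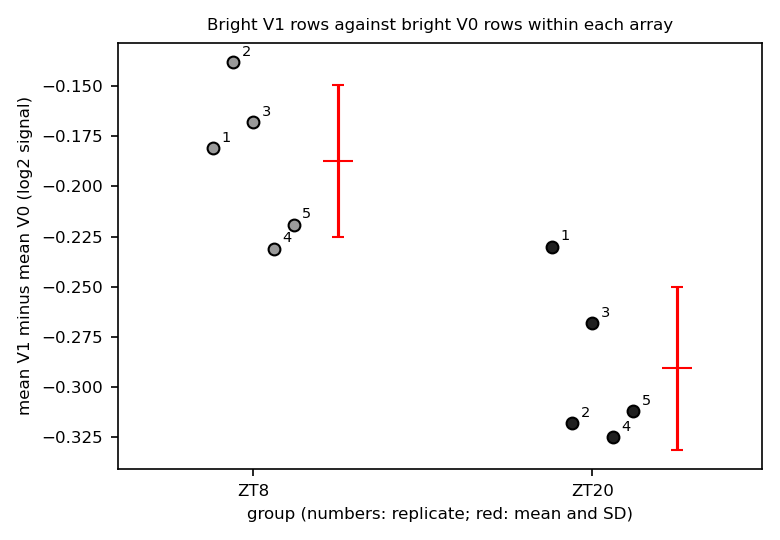
Mean log2 signal of the 8 V1 rows minus that of the 5 V0 rows in the brightest 20% (vertical axis) on each array, by group (horizontal axis), with replicate numbers and group mean and SD in red. ZT8 arrays lie between -0.231 and -0.138 and ZT20 arrays between -0.325 and -0.230, so the groups touch.

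Single arrays weighed on these values. ZT8 replicate 1 was the lowest of its group in 18 of the 20 bright genes and in 51.9% of all rows in the brightest 20%, and ZT20 replicate 2 in 10 of 20 and in 41.6% of those rows. On ZT8 replicate 1 the mean log2 signal of 9 beta cell markers was 10.54, against 10.90 to 11.02 on the other ZT8 arrays. On the same array 8 acinar cell markers averaged 11.36 and 5 duct markers 8.08, the highest values of all 10 arrays. On ZT20 replicate 2 the beta, acinar and duct means were 10.84, 10.68 and 7.46, within the range of the other ZT20 arrays. The lowest ZT20 beta cell mean, 10.62, was on replicate 4, which was lowest of its group in 3 of the 20 bright genes. Both low arrays had the highest median signal of their group, 5.4207 and 5.4843. The part of the cell mixture in the low values was not tested. Without ZT8 replicate 1, the differences were 0.24 for Atp6v1d, 0.236 for Atp6v1e1 and 0.109 for Atp6ap2, and the smallest adjusted p of the 30 genes was 0.0667, for Atp6v1e1.

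**Figure D5:**
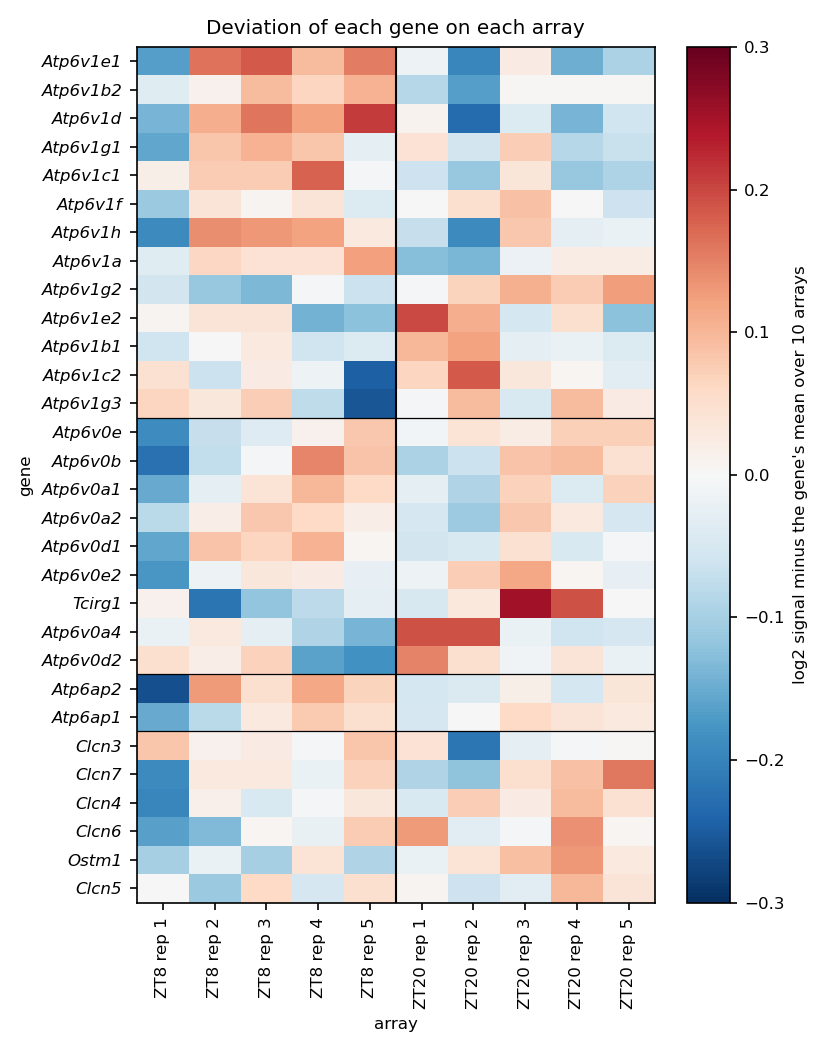
Log2 signal of each gene (rows, by sector) on each array (columns, ZT8 left and ZT20 right of the line) minus the gene's mean over the 10 arrays, as colour from -0.3 (blue) to 0.3 (red). The first column, ZT8 replicate 1, is blue in most of the bright genes, where it was the lowest of its group in 18 of 20.

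Related genes of acidification and lysosome function were read from 5 lists, with 0 called in any of them by limma at an adjusted p under 0.05. Of the assembly and regulation genes, 12 of 14 were measured, with a median difference of 0.026. At an unadjusted p under 0.05 there were 0, where 18.5% of all rows were in either direction. The members of the RAVE-like complex that reassembles V1 with V0 belong here: Rogdi and Wdr7, the highest in signal, averaged 9.93 and 9.38 at ZT8 and 9.87 and 9.36 at ZT20. Dmxl1 had the smallest p of that list, with a difference of 0.13 (SE 0.0665, adjusted p = 0.299).

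All 17 genes of lysosomal nutrient sensing, which reads amino acids at the lysosome through the Ragulator and Rag proteins, were measured, with a median of 0.028. Lamtor3, a Ragulator subunit, was the 1 gene at an unadjusted p under 0.05 (5.88% of the list, against 18.5% of all rows). Its difference was 0.12 (adjusted p = 0.268). Rraga and Lamtor5 had the highest signals, 10.31 and 10.10, with differences of 0.04 and -0.01. Tfeb, outside the naming rule and picked after its values were known because its protein binds the CLEAR element, averaged 7.01 ± 0.0348 at ZT8 and 7.06 ± 0.0972 at ZT20 (SD, n = 5 each).

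Of the lysosomal hydrolases and membrane proteins, 27 of 32 were measured, with a median of -0.005. Psap, the precursor of the saposins, and Cd63 had the highest signals, 12.49 and 12.35, and differences of 0.01 and 0.02. Asah1, acid ceramidase, was the only one of that list at an unadjusted p under 0.05 (3.7%, against 18.5% of all rows). Its difference was 0.17 (SE 0.0644, adjusted p = 0.193). Other ion transporters of organelles gave 21 of 23 measured genes and a median of 0.016, with 0 at an unadjusted p under 0.05. Slc30a8, which loads zinc into the insulin granule, averaged 11.95 ± 0.299 at ZT8 and 11.72 ± 0.193 at ZT20 (SD, n = 5 each), with an adjusted p of 0.353. Slc9a7, a sodium and proton exchanger, had a difference of 0.07, and Tmem9b, with the smallest p of that list, one of 0.14 (adjusted p = 0.297).

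Plasma membrane CLC channels and their partners, which do not acidify organelles, gave 4 of 6 measured genes, all with low signals and a median of -0.098. Clcn2 and Bsnd had differences of -0.03 and -0.08, and Hepacam one of -0.14 (SE 0.0532, adjusted p = 0.203). Hepacam was the 1 gene of these 4 at an unadjusted p under 0.05, where 18.5% of all rows were.

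Markers of beta, alpha, delta and PP cells were detected. Of 9 beta cell markers, 8 were above the highest background row on every array, as were 2 of 3 alpha cell, 2 of 3 delta cell and 2 of 2 PP cell markers. Acinar markers, 6 of 8 above background, had sums of linear signal from 22000 to 46100 at ZT8 and from 22200 to 42600 at ZT20, and duct, endothelial, and stellate cell and fibroblast markers were above it in 3 of 5, 8 of 8 and 3 of 7. No red blood cell marker of 4 was above it throughout. Of all these markers, 0 were called at an adjusted p under 0.05.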

How the data were processed

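The authors deposited 1 table of log2 signals for 10 one-colour Affymetrix arrays of RNA amplified and labelled with Affymetrix WT Pico reagents. The submitters' notes name Affymetrix Expression Console, a supplementary heading names GCRMA normalization, and the array model in the study's methods differs from the deposited one. Neither build nor scan batches are stated in those sources. Genes were named through the array's annotation, with symbols updated through RefSeq, which is how the Clcn4 row, listed under an older symbol, was matched. Arrays give signals, not counts, so the number of arrays limits precision.

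The 32814 rows that name a gene were fitted as deposited with limma 3.58.1 (lmFit, eBayes) in R 4.3.3, without covariates and two-sided, with Benjamini-Hochberg adjustment across all of them. The procedure was tested on simulated data. An exact permutation test of single rows (scipy 1.17.1) gave a second p. Alternatives were median centring, quantile normalization, other row filters, a replicate block, other variance priors, array weights, Welch's test (the methods' t-test) and leaving out each array. The genes, lists and tests were chosen with earlier results of these data known. Every gene of the set is named. Full statistics are given at an unadjusted p under 0.05, for the highest row of each subunit position that has isoforms, and for Atp6ap1, Atp6ap2, Clcn3 and Ostm1. Each pathway list is given by its 2 highest rows and its smallest p. A comparison of isoform proteins was not run.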

Additional observations from a re-analysis of the deposited data

Results flagged for a closer look

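In 4 of the 60 groups of 5 arrays, the lowest array stood apart from the rest by more than Dixon's limit, and it was ZT8 replicate 1 each time. Chance alone would flag about 1 in 20 groups. Atp6ap2 read 11.17 there, against 11.48 to 11.56 on the other ZT8 arrays. Atp6v1e1 read 11.18, against 11.44 to 11.53. Atp6v1d read 10.44, against 10.69 to 10.79. Atp6v0e2 read 7.85, against 8.0 to 8.06. The 4 genes share that array and its cell mixture, so they are not independent.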

How the results depend on the processing

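No gene of the set was called at an adjusted p under 0.05 under any of the 19 alternatives run. By mean signal, the same gene led each of the 8 isoform groups under every scaling and with each array left out. In the CLC group the lead was slight: Clcn3 was 0.06 above Clcn7 on average, and above it on 6 of 10 arrays. The smallest adjusted p of a gene ranged from 0.0667 to 0.26. The 3 genes higher at ZT8 at an unadjusted p under 0.05 became 0 with quantile normalization (8.14% of all rows), and the 3 lower became 0 with median centring (4.48% of all rows) and 7 with quantile normalization (7.29% of all rows). With arrays left out, the count of higher genes ran from 1 to 5, where 6.59% to 9.86% of all rows were higher. It was 5 without ZT8 replicate 1 and 1 without ZT8 replicate 3, 4 or 5 or without ZT20 replicate 2. The count of lower genes ran from 1 to 3, where 6.72% to 12.0% of all rows were lower. It was 1 without ZT8 replicate 2 and without ZT20 replicate 3 or 4. Among the genes given full statistics, signs turned with quantile normalization for Atp6ap2 (-0.064), Atp6v0a1 (-0.073), Atp6v0d1 (-0.028), Atp6v1b2 (-0.007) and Atp6v1g1 (-0.062). With median centring the sign of Atp6ap1 turned (0.02). Signs of other genes turned too. As deposited, 7 of 13 V1, 3 of 9 V0 and 1 of 6 CLC and Ostm1 genes were higher at ZT8. Median centring gave 8, 4 and 3, and quantile normalization 5, 0 and 1. With arrays left out, Atp6ap1 ran from -0.051 to 0.006 and Atp6v0a1 from -0.017 to 0.046. The cause was not tested. Correlations between the deviations of same-numbered arrays ran from -0.128 to 0.352, and those of other pairs from -0.396 to 0.39. These values do not settle whether the numbers pair the samples. With the replicate block, 0 genes were called and the same 6 had an unadjusted p under 0.05. Of all rows, 9.14% were then higher and 12.5% lower at that limit. The smallest adjusted p of a gene was 0.146, and rows called on the whole array went from 244 to 51. Over the alternatives, rows called on the whole array ran from 1 (all transcript rows) to 830 (array weights). They were 603 for centring, 52 for quantile normalization and 2 for Welch's test. With 1 array left out they ran from 1 to 427. They were 1 without ZT8 replicate 2, 3 or 4 or without ZT20 replicate 4, and 427 without ZT20 replicate 1. The share of all rows called therefore depended on single arrays. Averaging several rows of a gene was not run, since each gene had 1. Signals near background, as for 6 genes here, limit what a difference can show.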
